A study of Mus musculus with 9 samples.

Results

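The odorant receptor (OR) genes examined here are the 114 genes of chromosome 9 whose symbols run from Olfr828 to Olfr986, with any suffix, out of 1248 OR genes in the deposited tables. They were chosen by name alone. All 114 matched a gene of the GENCODE M21 annotation (GRCm38), and every one lies on chromosome 9. The annotation calls 109 of them protein coding, 3 polymorphic pseudogenes and 2 unprocessed pseudogenes, and 5 carry the suffix -ps. They form a pair of arrays. The 33 genes Olfr828 to Olfr873 lie at chr9:18814728-20303599, and the 81 genes Olfr874 to Olfr986 lie 17.4 Mb further on, at chr9:37745106-40190134. Another 20 ORs with other numbers also lie on chromosome 9 and were kept apart, so the name rule covers most but not all of the ORs of the chromosome.

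The RNA came from the olfactory epithelium (OE) of 9 C57BL/6 mice, by immunoprecipitation with an antibody against phosphorylated ribosomal protein S6 (pS6-IP). The 3 controls (the water group) were given distilled water, and heptanal, an aldehyde odorant, was given at 1% to 3 mice and at 100% to another 3, for 1 hr each. Each group held 1 mouse of postnatal day 22, 1 of day 21 and 1 of day 18, which are replicates 1, 2 and 3, and by the study's methods the mice of a replication were littermates of the same sex. No allele was altered in any group. Totals ran from 5438494 to 9707592 estimated counts per mouse, of which 10223 to 64455 fell on ORs. Wherever 3 values are given for a group below, they are for the mice of day 22, day 21 and day 18 in that order.

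Each mature olfactory sensory neuron (OSN) transcribes 1 allele of 1 OR gene and silences the rest, so the amount of an OR mRNA in the OE follows the number of OSNs that chose it and the mRNA that each of them holds. The receptor sits in the cilia and signals through the G protein subunit Gnal, the adenylyl cyclase Adcy3 and the channel subunit Cnga2. S6 becomes phosphorylated in neurons that have been active, and the antibody then recovers their ribosomes with the mRNAs on them, so that ORs whose neurons responded to an odor are expected to be enriched in the precipitate. In bulk RNA of this kind, fewer neurons and less mRNA per neuron cannot be told apart.

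Close paralogs limit how well single genes of these arrays can be counted, and the sequences below show why. Reads were 50 bases long. Neighbours such as Olfr960 and Olfr961, or Olfr979 and Olfr980, share coding runs longer than a read, and any read inside such a run was divided between them by the authors' rescue scheme. The longest run common to the longest annotated transcripts of each pair is printed in capitals as it lies in GRCm38. It is given 5′ to 3′ on the coding strand, with 60 bases of flank on each side in lower case. Each stretch lies whole within 1 coding exon.
Olfr960, plus strand, chr9:39623428-39623665: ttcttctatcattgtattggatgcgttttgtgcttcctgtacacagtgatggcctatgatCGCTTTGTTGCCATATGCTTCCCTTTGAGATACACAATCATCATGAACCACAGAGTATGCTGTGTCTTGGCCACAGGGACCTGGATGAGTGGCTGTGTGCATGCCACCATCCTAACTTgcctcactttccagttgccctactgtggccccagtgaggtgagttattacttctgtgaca
Olfr961, plus strand, chr9:39647025-39647262: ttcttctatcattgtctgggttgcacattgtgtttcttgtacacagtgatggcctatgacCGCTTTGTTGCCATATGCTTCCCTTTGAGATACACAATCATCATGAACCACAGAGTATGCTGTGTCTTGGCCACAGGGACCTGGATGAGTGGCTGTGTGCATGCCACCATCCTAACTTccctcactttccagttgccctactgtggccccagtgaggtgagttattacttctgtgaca
Olfr979, minus strand, chr9:40000686-40000940: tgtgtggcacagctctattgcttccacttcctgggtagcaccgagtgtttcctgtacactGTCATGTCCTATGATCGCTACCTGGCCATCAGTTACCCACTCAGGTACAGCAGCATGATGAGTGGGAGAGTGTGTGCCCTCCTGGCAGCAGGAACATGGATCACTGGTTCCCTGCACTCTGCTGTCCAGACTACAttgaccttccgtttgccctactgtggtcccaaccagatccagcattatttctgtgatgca
Olfr980, minus strand, chr9:40006408-40006662: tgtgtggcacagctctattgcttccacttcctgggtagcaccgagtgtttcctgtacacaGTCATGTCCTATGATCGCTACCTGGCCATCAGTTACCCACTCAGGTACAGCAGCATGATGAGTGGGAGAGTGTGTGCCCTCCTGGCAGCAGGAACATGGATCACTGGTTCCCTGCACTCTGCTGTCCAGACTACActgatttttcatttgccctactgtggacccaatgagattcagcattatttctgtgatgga
The run is 118 bases long in Olfr960 and Olfr961 and 135 bases long in Olfr979 and Olfr980. The bases next to each end of the run differ between the neighbours, but the flanks are alike too, and before the run of Olfr979 and Olfr980 no other base differs.

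Of all 50-base runs in its transcripts, a gene of these arrays shared a median of 2.29% with another OR. For 23 of the 114 (20.2%) no run was shared, against 23.5% of the other ORs with a transcript. The counts that rested on reads with more than 1 place were 11.5% for these genes over the 9 mice and 10.4% for the other ORs. For Olfr919, Olfr979 and Olfr980, alone among the 40 genes with at least 10 counts in all, over 50% of the counts (51.4%, 59.1% and 62.6%) came from such reads. These 3 genes, chosen after their values were seen, had mean counts below 10, so values of theirs depend on the rescue scheme. By contrast Olfr923, Olfr984 and Olfr985 had 0% of such counts and Olfr958 1.64%.

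The mRNAs of these receptors were a small part of the OR counts in the precipitate of every mouse, which does not measure their abundance in the whole OE. They are 9.13% of the OR genes, but took 0.247% to 1.22% of the OR counts, with a mean of 0.757% ± 0.323 (SD, n = 9). In the controls their share was 0.625%, 0.969% and 1.14%. At 1% heptanal it was 0.568%, 0.428% and 0.821%, and at 100% heptanal 0.247%, 0.794% and 1.22%. The ranges of the 3 groups overlapped, and the lowest and the highest of the 9 values both belonged to mice exposed to 100% heptanal. The lowest share had a 95% Wilson interval of 0.206% to 0.296% and the highest one of 1.14% to 1.31%, which cover counting error only.

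The mean share of these genes was 0.0829 times their share of OR genes, the lowest of the 13 groups of at least 20 ORs formed by chromosome, with the named genes and the other ORs of chromosome 9 as separate groups. The next lowest were the 20 other ORs of chromosome 9 at 0.108 times, chromosome 10 at 0.304 times and chromosome 2 at 0.417 times. The chromosome 11 ORs stood at 2.23 times. The median longest transcript was 2804 bases for these genes and 2762 bases for the other ORs. Per kilobase of that transcript, the median gene here had a mean of 0.136 counts per mouse, against 1.14 for the other ORs.

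**Figure D1:**
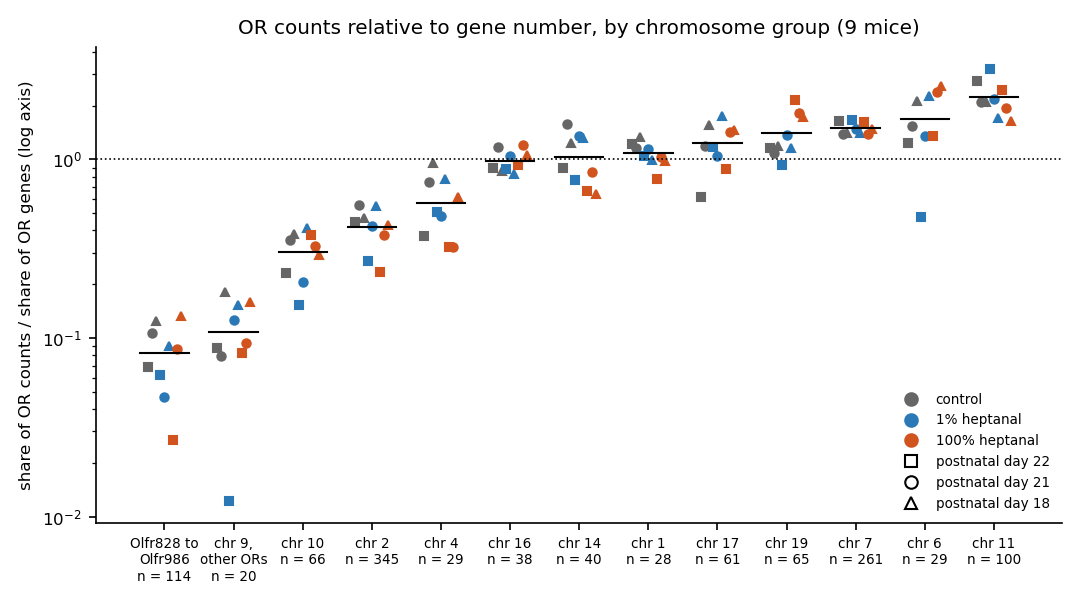
Share of all OR counts divided by share of all OR genes (log axis) for each group of at least 20 ORs, with 1 point per mouse (colour for the exposure, shape for the postnatal day) and a line at the mean of 9 mice. The genes Olfr828 to Olfr986 had the lowest mean, 0.0829, and all their points lie at or below 0.133; the dotted line marks counts in proportion to gene number.

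In every single mouse most members of the arrays had no count. With estimated counts rounded to whole numbers, at least 1 count was found for 10, 39 and 36 of the 114 genes in the controls, for 12, 12 and 38 at 1% heptanal and for 17, 43 and 42 at 100% heptanal. In the same order the other 1134 ORs were detected at 25.2%, 57.5% and 55.1%, at 23.0%, 39.8% and 59.2%, and at 40.8%, 58.9% and 60.8%, so in each of the 9 mice the share of these genes that was detected (8.77% to 37.7%) was lower than that of the other ORs. Over all 9 mice, 38 genes (33.3%) had no count, against 21.3% of the other ORs, and 4 of the 38 had a fraction of a count that rounds to 0. Only Olfr958 and Olfr961 were counted in all 9 mice, which is 1.75% of the genes, against 13.8% of the other ORs. A count of 0 allows up to 3 counts, or 0.295 to 0.521 counts per 1000000 (CPM) depending on the mouse, so these genes are below detection and not shown to be absent.

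The array of Olfr828 to Olfr873 was the sparser one. Of its 33 genes, 18 (54.5%) had no count in any mouse, and the 167 counts of all 9 mice together came to a mean of 0.561 per gene and mouse. Its highest gene was Olfr870 (minus strand, chr9:20168533-20174057), with 0, 11 and 17 counts in the water group, 0, 0 and 12 at 1% heptanal and 0, 14 and 5 at 100% heptanal. Olfr870 was thus absent from the counts of all 3 mice of day 22 and present in 5 of the other 6 mice. It shares 302 of its 50-base runs with Olfr871, which had no count, and 32.2% of its counts came from reads with more than 1 place.

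The array of Olfr874 to Olfr986 held 2592 of the 2758 counts, a mean of 3.56 per gene and mouse, and 20 of its 81 genes (24.7%) had no count. Along it the counts were uneven. The 7 genes that start between 40.0 and 40.5 Mb had 111 counts each on average over the 9 mice together, and the 19 genes between 39.5 and 40.0 Mb had 34.4 each, whereas the 19 genes between 38.0 and 38.5 Mb had 9.11 each. None of the 7 genes of the first window was without a count. Of the 5 genes with the suffix -ps, 4 had no count after rounding (Olfr964-ps1 had 0.333 in 1 control) and the fifth, Olfr911-ps1, had 7 in all.

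**Figure D2:**
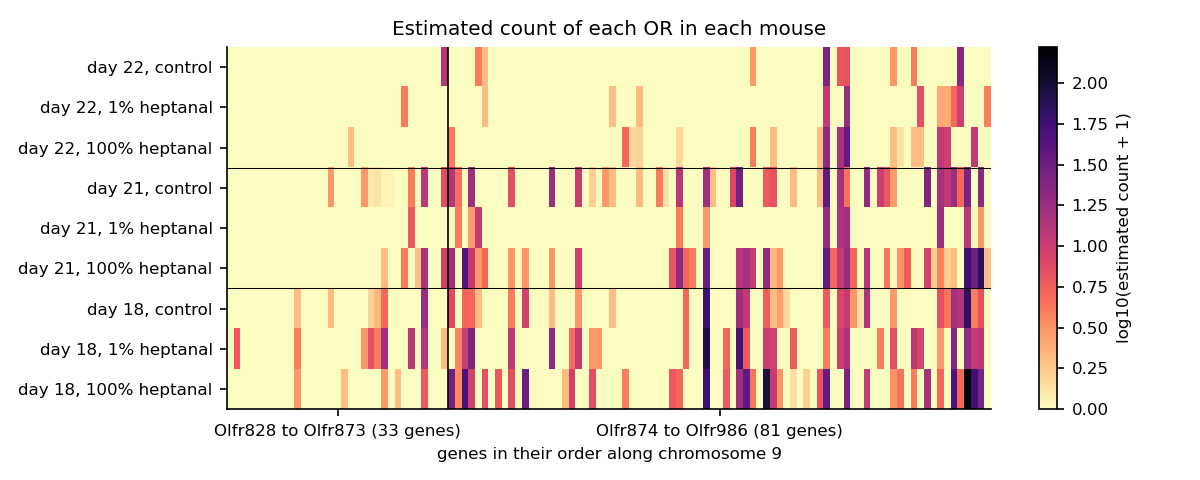
Estimated count of each of the 114 genes (columns, in their order along the chromosome) in each mouse (rows, grouped by postnatal day), as log10(count + 1). The vertical line parts the 33 genes of Olfr828 to Olfr873 from the 81 of Olfr874 to Olfr986; dark columns that run through all rows mark Olfr958 and Olfr961, while most columns are empty in the 3 rows of day 22.

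The 10 genes with the highest mean counts all belong to the second array, and together held 58.9% of the counts. Olfr983 (minus strand, chr9:40086908-40093595) led with a mean of 38.5 counts. It had 0, 25.7 and 68.6 counts in the water group, 0, 11 and 19 at 1% heptanal and 0, 56.5 and 166 at 100% heptanal. Its counts were lowest at 1% and highest at 100% heptanal in the litters of day 21 and day 18, and 0 throughout the litter of day 22. Even so it ranked only 193rd among the ORs, with 192 of the other ORs (16.9%) above it.

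Olfr923 (plus strand, chr9:38826545-38830300) was the next by mean count, at 27.8, and led per kilobase of annotated exon. It had 0, 16 and 58 counts in the water group, 0, 2 and 87 at 1% heptanal and 0, 32 and 55 at 100% heptanal. Within each group its value was highest at day 18 and 0 at day 22. Olfr985 (minus strand, chr9:40126308-40130184) had 0, 21 and 6 counts in the water group, 0, 2 and 11 at 1% heptanal and 0, 72 and 26 at 100% heptanal. Controls had 0, 28.9 and 16 counts of Olfr934, against 0, 0 and 51 counts at 1% heptanal and 0, 11.8 and 14.9 counts at 100% heptanal. For Olfr981 the counts were 0, 17 and 15 in water, 4, 0 and 22 at 1% heptanal and 0, 1 and 46 at 100% heptanal. The groups of both genes overlapped. Per kilobase of annotated exon Olfr935 also came among the highest 10, with 0, 0 and 10.1 counts in controls, 0, 0 and 4.84 counts at 1% heptanal and 0, 14.6 and 36.1 counts at 100% heptanal.

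Olfr958 and Olfr961 stood apart from this. Olfr958 (minus strand, chr9:39547958-39554054) had 25, 35 and 5 counts in the water group, 10, 18 and 3 at 1% heptanal and 20, 33 and 34 at 100% heptanal. Olfr961 (plus strand, chr9:39645085-39649556) had 5.6, 3.48 and 9.6 counts in the water group, 17, 14.9 and 13.4 at 1% heptanal and 33.9, 17.8 and 26 at 100% heptanal. Both were counted in every mouse of day 22.

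The precipitates of the mice of day 22 held few counts of these genes. At day 22 they made up 0.363% of the OR counts of the 3 mice pooled, against 0.78% at day 21 and 1.06% at day 18. The pooled value at day 22 leans on the mouse at 100% heptanal, which had 46593 OR counts and a share of 0.247%. The control and the mouse at 1% heptanal of day 22 had 0.625% and 0.568%. Both were above the mouse of day 21 at 1% heptanal, at 0.428%, so days 22 and 21 overlapped. Of the 26 genes with at least 20 counts over the other 6 mice, 16 (61.5%) had 0 in all 3 mice of day 22, against 25.2% of the 620 other ORs that passed the same minimum. That minimum does not match the genes for abundance. A mean of 10 or more counts was reached by 8.77% of all genes of the arrays, against 35.1% of all other ORs. Sparser genes reach 0 more easily, and whether the gap goes beyond abundance was not tested. Among the 10 leading genes, 6 were at 0 in all 3 mice of day 22, namely Olfr983, Olfr923, Olfr985, Olfr943, Olfr934 and Olfr876. The 253 counts that were found came mostly from 5 genes. Olfr961, Olfr958, Olfr982, Olfr960 and Olfr979 held 68.4% of them, but 13.2% of the counts in the other 6 mice.

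Olfr982, named with Olfr979 after its values were seen, was counted at day 22, where Olfr983 was not. It had 21, 4 and 13 counts in the water group, 9, 0 and 0 at 1% heptanal and 0, 0 and 4 at 100% heptanal, so that 30 of its counts were in the mice of day 22. None of those 30 was at 100% heptanal. In each litter the count of Olfr982 was highest in the control, and the gene was too sparse to pass the filter for the tests below. Olfr960 had 5.4, 14.5 and 7.31 counts in the water group, 0, 13.1 and 8.58 at 1% heptanal and 14.1, 9.95 and 0 at 100% heptanal.

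Deeper libraries did not always have more of these genes. The mouse of day 22 at 100% heptanal had 46593 OR counts, more than the control of day 21 with 39053, yet 115 counts on these genes against 379. When every mouse was reduced by calculation to 10220 OR counts, the lowest total, 9.11 to 12 of the 114 genes were expected in the mice of day 22, 10.6 to 29.2 at day 21 and 27.1 to 27.5 at day 18. The low value at day 21 was the mouse at 1% heptanal, so its detection was like that of the mice of day 22. The other ORs were expected at 23.0% to 33.2% at day 22, 36.1% to 49.8% at day 21 and 49.4% to 49.7% at day 18, so they too were fewer in those mice.

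**Figure D3:**
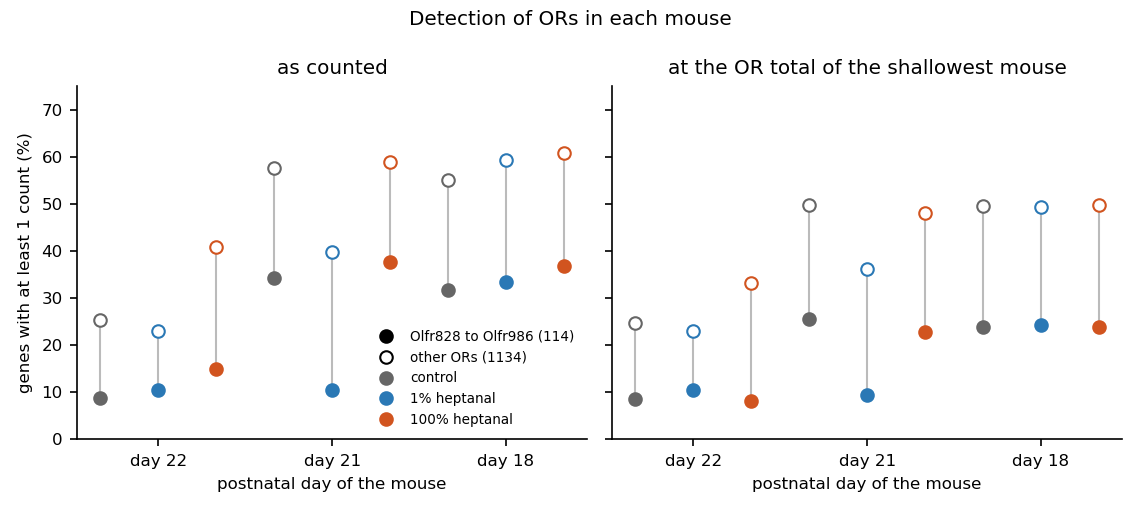
Percent of genes with at least 1 estimated count in each mouse, for the 114 genes (filled) and the 1134 other ORs (open), as counted (left) and at 10220 OR counts (right). The filled point lies below the open one in all 9 mice, and the 3 mice of day 22 and the mouse of day 21 at 1% heptanal have the lowest filled points.

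Litter, age and library series cannot be told apart for day 22, because each age is 1 replication of littermates and the titles of the day 22 samples start with YJC where those of days 21 and 18 start with YJE, a prefix whose meaning is not given in the sources used here. Several markers, singled out here after their values were seen, also differed at day 22. Ncam2, an adhesion molecule known from OSNs outside the most dorsal zone of the OE, had 2, 2 and 6 counts in the mice of day 22 and 10 to 68 in the other 6. Nqo1, known from dorsal OSNs, had 330 to 1701 counts at day 22 and 475 to 1829 at the other days, which overlap when the groups are pooled. Within each group, however, Nqo1 was also lowest at day 22. It had 83.2, 113 and 107 CPM in the water group, 48.7, 82.5 and 111 CPM at 1% heptanal and 194, 255 and 208 CPM at 100% heptanal. The transcription factor Ebf2 had 74.9 to 105 CPM at day 22 and 273 to 507 CPM at the other days, and Rtp1, which helps ORs to the cell surface, 12.7 to 119 CPM and 222 to 398 CPM. The phosphodiesterase Pde1c had 4.28 to 28.1 CPM at day 22 and 51.2 to 159 CPM at the other days. These ranges did not overlap. Ebf2, Rtp1 and Pde1c were picked from lists of OR choice and transduction genes, in which others went the other way. Ebf4 had 120 to 140 CPM at day 22 and 41.3 to 108 CPM at the other days. Gng13 was highest at day 22 in each group, at 101, 163 and 374 CPM against 43.2 to 105 CPM.

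Whole marker lists split less evenly by day. For the 5 markers of mature OSNs the sums overlapped, at 5870 to 11774 CPM at day 22, 8480 to 14891 CPM at day 21 and 4237 to 10558 CPM at day 18. The 4 markers of immature OSNs summed to 425 to 743 CPM, 786 to 988 CPM and 753 to 1044 CPM in that order. Gap43, Stmn2 and Dpysl3 were lowest at day 22 in each group, whereas Gng8 was highest there, at 31.4, 42.2 and 48.6 CPM against 21.9 to 35.3 CPM at the other days. The 5 sustentacular markers summed to 4734 to 5407 CPM at day 22 and 4541 to 7622 CPM at the other days. Among them Sult1c1 had 4.28 to 8.23 CPM at day 22 against 31.3 to 865 CPM, and Ermn 0.295 to 7.77 CPM against 21.2 to 115 CPM. The 4 markers of Bowman's glands summed to 11132 to 18169 CPM, 14827 to 34203 CPM and 22140 to 40437 CPM at days 22, 21 and 18, most of it Bpifb9b, while Aqp5 and Muc5b were highest at day 22 in each group. No marker of these lists was at 0 in all mice. Their part in the low values of day 22 was not tested.

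The response to heptanal was tested with edgeR's quasi-likelihood test on all 9 mice, with p-values adjusted by the Benjamini-Hochberg method over all 14930 genes that passed the filter on low counts. Of these, 448 were ORs and only 12 were genes of the arrays, namely Olfr870, Olfr874, Olfr877, Olfr923, Olfr934, Olfr958, Olfr960, Olfr961, Olfr965, Olfr981, Olfr983 and Olfr985. That is 10.5% of the 114, against 38.4% of the other ORs, and the other 102 genes were too sparse to be tested. A gene could pass the filter through 1 group where it was high.

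No gene of the arrays passed the threshold of 0.05 in any comparison. At 1% heptanal against control 0 genes of any kind were called (0%), and likewise 0 (0%) when the litter was added to the fit as a block. At 100% heptanal against control 2 genes were called (0.0134%), or 48 (0.322%) with the block, and 0 of the 12. Between 100% and 1% heptanal 2 genes were called (0.0134%), or 12 (0.0804%) with the block, and again 0 of the 12. At an unadjusted p under 0.05 without the block, 2 of the 12 were lower at 1% heptanal (3.57% of the ORs tested), 1 was higher at 100% heptanal (13.4%) and 1 was higher at 100% than at 1% (14.7%). With the block, 3 of the 12 were lower at 1% heptanal, 1 was higher at 100% and 4 were higher at 100% than at 1%. Among the 436 other ORs tested, the numbers were 26, 130 and 153 in the same order. DESeq2's Wald test also called 0 of the 12 in each comparison.

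Genes of neuronal activity were called at 100% heptanal. Fosb, an immediate early gene of active neurons, rose at 100% heptanal by 4.97 ± 0.358 on the log2 scale (SE, edgeR adjusted p = 0.00398), as 1 of 9 activity genes called, or 4 of 9 with the block (Fos, Fosb, Egr1 and Nr4a1). None of the 5 markers of mature OSNs, the 12 transduction genes or the 12 genes of OR choice and trafficking passed without the block. With it, Omp, Gng13 and Stoml3 rose at 100% heptanal, and none of these lists had a gene that fell. At 1% heptanal none passed in either fit.

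The 12 genes had a median log2 fold change of 0.17 at 100% heptanal, against 0.96 for the 436 other ORs tested and −0.03 for all genes. Of the 12, 7 (58.3%) lay above 0, against 74.3% of the other ORs. At 1% heptanal their median was −0.77, against −0.09, and 2 (16.7%) lay above 0, against 45.4%. Olfr874 and Olfr965 had no count at 1% heptanal. Set to their bounds (2.05-fold and 3.54-fold lower) both stay below the median, which therefore cannot change. The sign at 100% heptanal depends on the scaling. Scaled by the 5 markers of mature OSNs the median was −0.59, with 0.24 for the other ORs and −0.89 for all genes, and with normalization over the ORs alone it was −0.9, 0.04 and −1.14. The gap between the 12 and the other ORs at 100% heptanal was −0.79 as fitted, and −0.83 and −0.94 under those scalings. It was −0.5 with no filter (76 genes) and −0.44 without the mice of day 22 (20 genes). Each time 1 mouse was left out the filter was run anew, so the genes tested changed as well, to between 16 and 21. The gap then ran from −1.03 (16 genes), without the mouse of day 18 at 100% heptanal, to −0.47 (21 genes), without that of day 22. At 1% heptanal the gap was −0.69 as fitted but 0 with no filter. With 1 mouse left out it ran from −2.15 (19 genes), without the mouse of day 18 at 1% heptanal, to −0.34 (20 genes), without the control of day 18. These medians describe genes that passed a filter and carry no test.

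**Figure D4:**
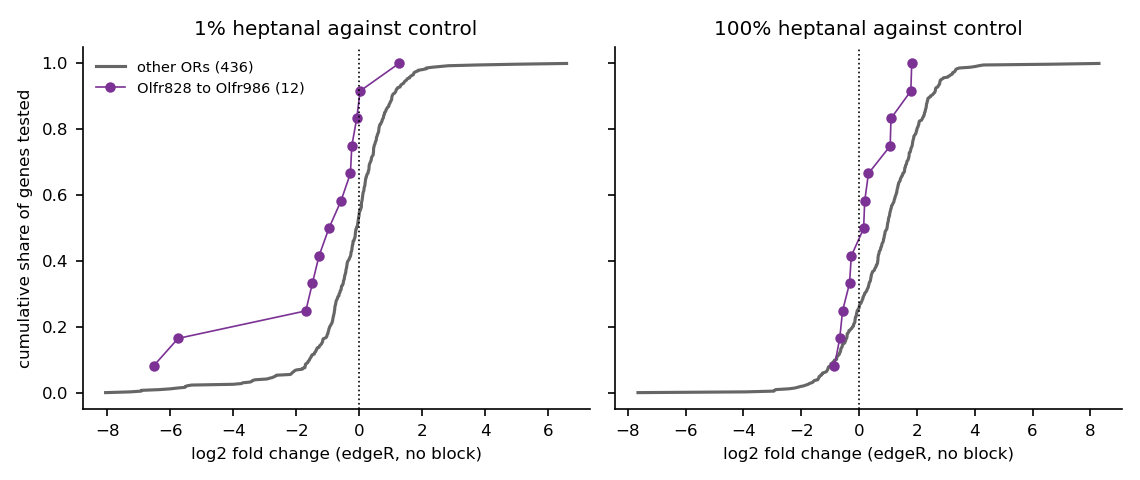
Cumulative share of the ORs tested against their log2 fold change (edgeR, no block) at 1% heptanal (left) and 100% heptanal (right), for the 12 genes of the arrays (points) and the 436 other ORs (line). The points lie left of the line or on it, with medians of −0.77 and 0.17 against −0.09 and 0.96; the lowest points at 1% heptanal are Olfr965 and Olfr874, which had no count there and whose fitted values are not bounds.

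By litter, 2 of the 12 genes (16.7%) had a higher CPM at 100% heptanal than in the littermate control in 3 of 3 litters, Olfr874 and Olfr961, against 43.3% of all ORs tested. At day 22, however, Olfr874 had 3 counts at 100% heptanal and 0 in the control and at 1% heptanal, which is at the floor of 3 counts, so that no difference is shown in that litter. Only for Olfr961 were all 3 mice at 100% heptanal above all 3 controls, which held for 20.1% of the ORs tested. At 1% heptanal 1 gene, Olfr958, was lower than control in 3 of 3 litters (8.71% of the ORs tested), and 1 gene, Olfr961, was higher in 3 of 3 litters (5.36%), again with no overlap between the groups (2.01%). Between the concentrations, Olfr874 and Olfr958 had the higher value at 100% heptanal in 3 of 3 litters (44.9%), and the values of Olfr874 did not overlap (20.3%), though at day 22 they differed by no more than the floor. At 100% heptanal the share of the 12 genes was lower than that of the ORs tested, and whether it differs was not tested.

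Olfr961 had the lowest p of the 12 genes tested at 100% heptanal. Its level was 0.929, 0.423 and 1.26 CPM in the water group, 2.51, 2.61 and 1.28 CPM at 1% heptanal and 3.89, 2.52 and 2.96 CPM at 100% heptanal. All mice exposed to heptanal were above all controls, although at day 18 the values were 1.28 CPM at 1% heptanal and 1.26 CPM in the control. The log2 fold change was 1.82 ± 0.612 at 100% heptanal and 1.26 ± 0.612 at 1% (edgeR adjusted p = 1 for both). The value at 100% heptanal depended on the scaling. It was 0.85 when scaled by the 5 markers of mature OSNs and 0.66 with normalization over the ORs, and under either scaling no gene of the arrays had an unadjusted p under 0.05 at 100% heptanal. Adjusted over the 448 ORs tested, the value at 100% heptanal had an edgeR adjusted p = 0.205, or 0.114 with the block. Some 17.5% of its counts came from reads with more than 1 place, and it shares 259 of its 50-base runs with Olfr960, which had 0.774, 2.11 and 0.885 CPM in the controls and 1.6, 1.4 and 0 CPM at 100% heptanal. With uniquely mapped reads alone, Olfr961 was again the only gene of the arrays with an unadjusted p under 0.05 at 100% heptanal, of 8 tested (13.6% of the 412 ORs tested were higher at that threshold).

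Olfr874 and Olfr965 were at 0 in all 3 mice at 1% heptanal. Olfr874 (plus strand, chr9:37745106-37748594) had 0, 1.69 and 0.885 CPM in the controls and 0.343, 2.1 and 3.07 CPM at 100% heptanal. Against a floor of 3 counts per library, its mean at 1% heptanal was at least 2.05-fold below the mean of the controls. It was at least 4.39-fold below the mean at 100% heptanal (edgeR adjusted p = 1 for both). These bounds cover the group at 0 only and leave out the spread of the other (SD 0.846 CPM in the controls and 1.38 CPM at 100% heptanal). Olfr965 (plus strand, chr9:39711353-39720614) had 0, 2.82 and 1.64 CPM in the controls and 0, 1.68 and 1.14 CPM at 100% heptanal. Its mean at 1% heptanal was at least 3.54-fold below that of the controls (edgeR adjusted p = 1), again without their spread (SD 1.42 CPM). In both genes the control of day 22 was at 0 as well, so that the groups overlapped.

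Olfr983 and Olfr985 had their highest values at 100% heptanal. For Olfr983 the levels were 0, 3.66 and 8.72 CPM in the water group, 0, 1.91 and 1.87 CPM at 1% heptanal and 0, 7.85 and 18.9 CPM at 100% heptanal. The log2 fold change was 1.1 ± 1.73 at 100% heptanal and 2.8 ± 1.86 between the concentrations (edgeR adjusted p = 1 for both). With the block the latter was 2.66 ± 0.617 (edgeR adjusted p = 0.268 over all genes). Olfr985 had 0, 2.96 and 0.758 CPM in the controls and 0, 10.1 and 2.96 CPM at 100% heptanal, with a log2 fold change of 1.79 ± 1.7 (edgeR adjusted p = 1) that ran from 0.26, without the mouse of day 21 at 100% heptanal, to 3.42, without the control of day 21. In both genes the mice of day 22 were at 0, and the groups overlapped.

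When p-values were adjusted over the 448 ORs tested and the litter was a block, calls appeared between the concentrations. Then 65 ORs (14.5%) were called, 2 of them genes of the arrays, Olfr983 and Olfr874 (edgeR adjusted p = 0.0359 for both), each higher at 100% than at 1% heptanal. At 100% heptanal against control the same adjustment called 41 ORs (9.15%) and 0 of the 12. Some 26.9% of the counts of Olfr874 came from reads with more than 1 place. With the block and uniquely mapped reads alone, Olfr874 was not among the 8 genes of the arrays tested. Between the concentrations, Olfr983 was then the 1 gene of the arrays called, and 57 of the 412 ORs tested were called higher. With the block and no filter, Olfr874 was not called at this adjustment either.

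**Figure D5:**
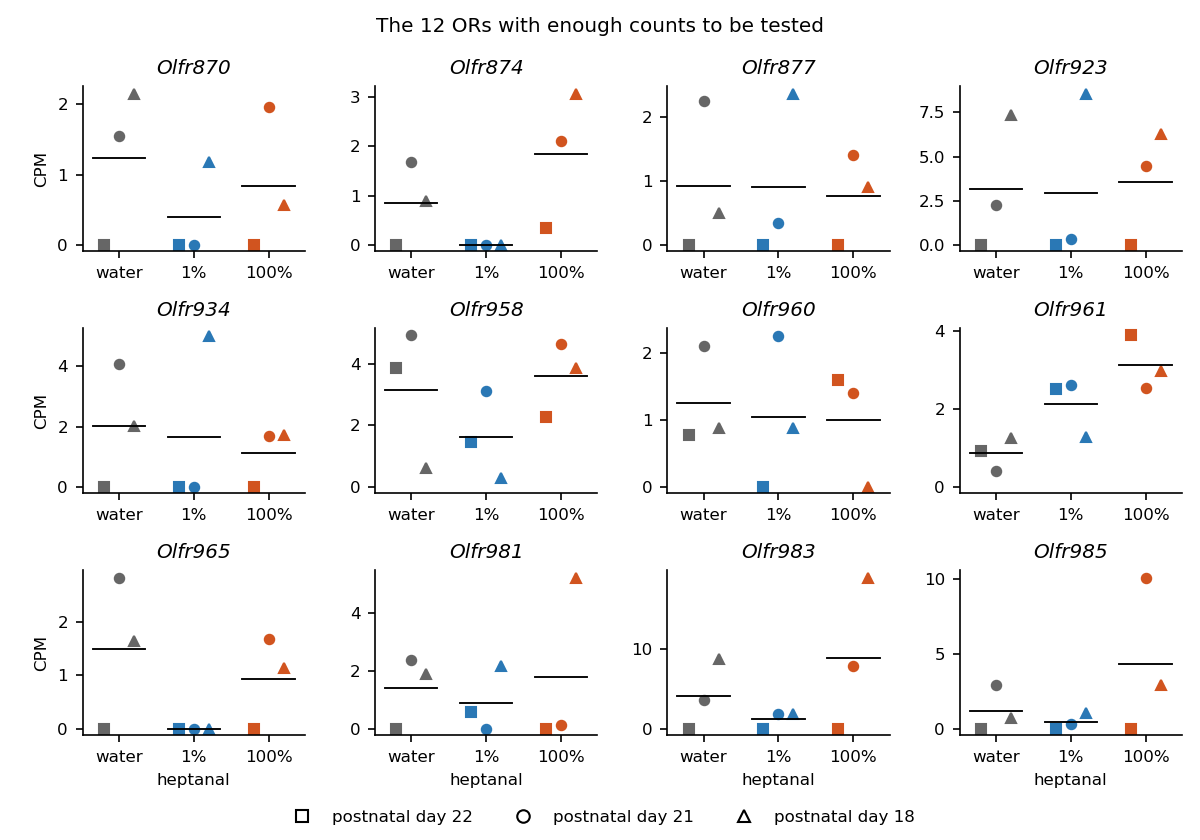
CPM of the 12 genes tested in each mouse, by exposure (water, 1% and 100% heptanal), with shape for the postnatal day and a line at the mean of 3 mice. Vertical axes differ between panels; Olfr961 is the only panel in which all mice at 100% heptanal lie above all controls, and in 7 panels the mice of day 22 lie at 0 in every group.

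In the fit without the block, the lowest log2 fold changes at 100% heptanal were small beside their errors, which include the differences between litters. They were −0.85 ± 1.9 for Olfr934, −0.67 ± 1.56 for Olfr965 and −0.57 ± 1.69 for Olfr870. With the block the values were −0.95, −0.62 and −0.44 in the same order, and 0 of the 12 were lower at an unadjusted edgeR p under 0.05. The other 5 genes, Olfr877, Olfr923, Olfr958, Olfr960 and Olfr981, lay between −0.33 and 0.32. For Olfr958 the difference at 1% heptanal was −0.97 ± 0.927 (edgeR adjusted p = 1), with the control above its littermate in each litter.

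Among the 102 genes that were not tested, the filter left out 3 of the 10 with the highest mean counts, each with its highest values at 100% heptanal. Olfr984 (minus strand, chr9:40096515-40114206) had 0, 0 and 3 counts in the water group, 0, 0 and 10 at 1% heptanal and 10, 30 and 55 at 100% heptanal. Olfr876 (plus strand, chr9:37803031-37808144) had 0, 0 and 4.27 counts in the water group, 0, 0 and 9.33 at 1% heptanal and 0, 43 and 47.2 at 100% heptanal. Olfr943 had 0, 5.01 and 4.59 counts in the water group, 0, 0 and 9.14 at 1% heptanal and 0, 18.3 and 88.9 at 100% heptanal. In Olfr984 all 3 mice at 100% heptanal were above or equal to all 6 others, with the lowest of them level with the highest at 1%. Tested with no filter and the block, Olfr984 differed from control at 100% heptanal by 5.42 ± 1.28 on the log2 scale (edgeR adjusted p = 0.123 over all genes, 0.0297 over the ORs), and Olfr876 by 4.85 ± 1.52 (0.342 and 0.111). The controls of both genes were at or near the floor of 3 counts (0, 0 and 3 for Olfr984, 0, 0 and 4.27 for Olfr876). Their fold changes in this fit are therefore not bounds, and their size is not fixed by the counts. In that fit, adjusted over the 968 ORs, 4.86% of the ORs were called higher at 100% heptanal than in control, with Olfr984 the 1 gene of 76 from the arrays, and 6.92% were called higher at 100% than at 1%, with 2 of the 76 (Olfr983 and Olfr984). The adjustment over the ORs in this fit was chosen after the data had been seen. No untested gene had at least 1 count in all 3 mice at 100% heptanal and none in the controls, or the reverse.

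Olfr902 and Olfr916, which the study expressed in cultured cells, could not be followed here. Olfr902 had no count in any mouse, and Olfr916 had 3 counts in all, in 1 mouse.

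Motif letters in the promoters were counted as a description. In the 300 bases around the annotated 5′ end (250 before to 50 after, both strands searched), the homeodomain core TAATTA was found in 23 of the 114 windows (20.2%), against 24.2% of the other ORs and 5.3% of all protein coding genes. The TATA box letters TATAAA were in 38.6%, 33% and 12.6% in the same order. A match is only a match of letters in these windows.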

How the data were processed

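The pS6-IP libraries were single-end, and per the labels and the study's methods the authors aligned 50-base reads to mm10 with Bowtie and counted them with bedtools on gene models in which those of the ORs had been extended. The deposited tables have no header, so their columns were identified from their values. Column 2 was taken as counts of reads mapped to 1 place, deposited by the authors without normalization. Column 21 was taken as estimated counts, in which the authors also assigned reads with several places by a rescue scheme. The other 18 columns were not used. The library kit does not mark strand, so antisense reads cannot be told apart, and PCR copies were not removed by molecular identifiers.

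Estimated counts were rounded to whole numbers for tests and detection. All 9 mice in 3 groups entered 1 edgeR 4.0.16 fit (R 4.3.3) without a block, with filterByExpr, TMM scaling and the quasi-likelihood functions glmQLFit and glmQLFTest. Standard errors are the fold change over the square root of its test statistic, and CPM are scaled by TMM. DESeq2 1.42.0 was an alternative. The fits were also run on simulated counts that held no difference between litters, so that run does not show how they treat litters. Totals of 5438494 to 9707592 counts set the precision, and replicates of a group differed with a chi-square of 30 to 111 per gene, so none was a repeat. The p-values measure the spread between these mice.

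Replicate numbers pair the mice through shared litters (study's methods). Deviations from the group means correlated at 0.155 to 0.73 in all 9 pairs of the same number over all genes. The other 18 pairs ran from −0.746 to 0.449, with a mean of −0.253, so some were above the lowest pairs of the same number. Deviations within a group sum to 0. The negative mean therefore follows from the values of the same-number pairs and is not separate evidence of pairing. Over the ORs alone, 7 of the 9 pairs were at 0.302 to 0.575, and the mouse of day 21 at 1% heptanal was at 0.0299 with its control and −0.0439 with its littermate at 100% heptanal.

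Named genes are those called in either fit, the lowest p-values (10 at 100% heptanal, 5 at 1% and 5 between them), the 10 highest mean counts in all and per kilobase, Olfr902 and Olfr916, the 3 lowest fold changes, genes resting on multiple mapping, and untested genes counted in all mice of 1 of the 2 outer groups and none of the other. The genes and all lists were chosen with earlier results of these data known. Gene positions are from GENCODE M21, and sequences from GRCm38.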

Additional observations from a re-analysis of the deposited data

How the results depend on the processing

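No gene of the arrays was called at 1% heptanal in any of the 22 alternatives, nor at 100% heptanal in 21 of 22 or between the concentrations in 20 of 22. The exceptions adjusted over the ORs alone: 2 genes between the concentrations with the replicate block, and, with the block and no filter, 1 at 100% heptanal (4.86% of the 968 ORs) and 2 between the concentrations (6.92%). The replicate block without that adjustment changed no call among the 12 genes (0 in each comparison), although it raised the calls over all genes at 100% heptanal from 2 to 48, and DESeq2 without the block called 66 higher and 2 lower. Leaving out 1 mouse at a time gave 0 calls throughout. It moved the median log2 fold change of the genes tested, which were 16 to 21 in place of 12. At 1% heptanal the median ran from −3.14 (19 genes), without the mouse of day 18 at 1% heptanal, to −0.02 (17 genes), without the control of day 21. At 100% heptanal it ran from −0.28 (16 genes), without the mouse of day 21 at that dose (−0.23 without that of day 18), to 1.02 (17 genes), without the control of day 21. Normalized over the ORs, the median at 100% heptanal was −0.9, and Olfr958 between the concentrations had −0.14 in place of 1.16. At 100% heptanal some signs turned when 1 mouse was left out, with ranges of −0.08 to 2.27 for Olfr983, −1.43 to 0.13 for Olfr934, −1.35 to 0.16 for Olfr965 and −2.05 to 0.09 for Olfr870, and Olfr985 ran from 0.26 to 3.42. The mean number of genes detected per mouse was 27.7, and 9.89 at a minimum of 10 counts. The share of OR counts had a mean of 0.699% to 0.821% when 1 mouse was left out. The cause of these changes was not tested. Without the mice of day 22, an alternative chosen after seeing the data, 20 genes could be tested and 0 were called in each comparison. Low counts limit all fold changes given here.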
